A study of Mus musculus with 30 samples.

Results

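AML12 cells with siRNA knockdown of both FoxK1 and FoxK2 (DKD) were compared with Control cells. The difference in their transcriptional response to insulin was examined in all genes of the deposited count tables. The quantity was defined by its samples alone. For each gene, the change from basal to insulin in Control cells was subtracted from the same change in the double knockdown, so a positive value marks a transcript that ended relatively higher after insulin when both factors were reduced. Of the 30 RNA-seq samples in the series, 14 entered this contrast, and 11368 of the 49089 genes in the tables had enough counts to be tested. AML12 is an immortalized mouse hepatocyte line, derived from mice that carry a human TGFα transgene.

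All cells had been transfected with siRNA and starved of serum overnight. The 4 Control basal samples received a non-targeting siRNA and no insulin. The 3 Control insulin samples received the same siRNA and 100 nM insulin for 6 h. The 4 DKD basal and 3 DKD insulin samples received siRNAs against both Foxk1 and Foxk2, with insulin and times as for Control cells. Whether they were otherwise handled alike is not given in the labels. The labels give the basal samples time 0, whereas the study describes a mock treatment beside the 6 h of insulin. If the basal cells were taken at time 0, the 6 h in culture and the hormone cannot be told apart. The labels do not say whether samples of a group came from separate cultures, so the p-values measure the spread between these samples, which may be technical.

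Insulin binds its receptor, recruits the IRS proteins and activates the PI3K–Akt and mTORC1 pathways. Akt phosphorylates the FoxO forkhead factors and keeps them out of the nucleus, which lowers their fasting targets, while SREBP and ATF4 programs for lipid and amino acid synthesis rise. FoxK1 and FoxK2 are forkhead factors of another branch that carry a forkhead-associated domain in addition to the DNA-binding domain, and both bind sites built around the same core as FoxO.

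The targeted genes were measured first. Foxk1 (chromosome 5, 142401497 to 142462011, plus strand, GRCm38) stood at 87.6, 83.5, 66.2 and 88.4 CPM (counts scaled to the library's total by TMM) in Control basal samples and at 44.2, 49.7, 49 and 42.9 in DKD basal samples. Foxk2 (chromosome 11, 121259990 to 121309896, plus strand) stood at 150, 145, 133 and 134 CPM in Control basal samples against 52, 54.7, 52.3 and 41.9 in DKD basal samples. The groups did not overlap for either gene, and the knockdown at basal was −0.82 on the log2 scale for Foxk1 (SE 0.12, FDR 8.92e-06) and −1.49 for Foxk2 (SE 0.09, FDR 8.15e-14), so part of each transcript remained. After insulin the knockdown was −0.62 for Foxk1 (SE 0.15) and −1.34 for Foxk2 (SE 0.10). In bulk RNA a fall in every cell and a loss from some of the cells cannot be told apart. No difference in the targets' own response to insulin was detectable at this depth. It was 0.20 for Foxk1 (SE 0.19, FDR 0.688) and 0.15 for Foxk2 (SE 0.14, FDR 0.686).

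Total counts ran from 2141460 to 5668270 in the 14 samples. One library stood apart. The root mean square distance of Control basal replicate 1 to each other sample of its group averaged 0.518 log2 units. For the other 3 samples the same average was 0.374 to 0.382. Of 19 hepatocyte markers 12 were high enough to test, and the list summed to 2170 to 2950 CPM over the 14 samples. It includes Krt8 and Krt18, keratins not particular to hepatocytes, and Krt8 alone was at 433 to 983 CPM. Cholangiocyte markers, led by Spp1, Krt19 and Sox9, summed to 1670 to 2700 CPM, and of these Epcam was at 0 in every sample. No fibroblast or endothelial marker passed the filter, and their sums reached at most 1.47 and 0.624 CPM. Of 7 macrophage and leukocyte markers 2 were tested, and the list summed to 99 to 135 CPM.

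Some transcripts divided the groups in another way. Rps2-ps10, a copy of a ribosomal protein gene, had 0 counts in all 4 Control basal samples, where 3 counts would be 0.536 to 0.851 CPM. It was at 4.42 to 14.5 CPM in Control insulin, 4.59 to 12 in DKD basal and 9.27 to 17.4 in DKD insulin samples. Gm42939 had 0.284 CPM in 1 Control basal sample and 0 in the others, against 4.42 to 13.1 in the other 3 groups, and Gm12922 was at 0 in 3 of the 4, against 1.9 to 6.68. The basal samples of both single knockdowns had at most 0.66 CPM of Rps2-ps10, 0 of Gm42939 and at most 0.648 of Gm12922, and their insulin samples had at least 2.87, 5.29 and 2.12. In these transcripts DKD basal samples lay with the insulin samples and apart from the other basal samples. Some transcripts at higher levels also had DKD basal samples apart from the other basal samples. Mean basal CPM of Kdm6a was 144 in Control, 157 and 164 in the FoxK1 and FoxK2 single knockdowns and 82.9 in DKD cells. Its means in the insulin groups were 96.3 to 105. Skp1a had basal means of 472, 465, 481 and 328 in the same order, and 344 to 397 after insulin. Deptor did not divide so, with 103, 112, 125 and 113 at basal. How many genes did was not counted. No label names a library batch, so a difference in handling and the groups of the contrast cannot be told apart.

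Between Control and DKD cells the response to insulin differed for 459 genes, 271 with a higher and 188 with a lower value in DKD cells. The fit held all 30 samples, which shared 1 estimate of the spread. With only the 14 samples of the contrast in the fit, 158 were higher and 97 lower, and without DKD insulin replicate 2, 156 and 125. The test was the quasi-likelihood test of edgeR, and a call required a false discovery rate (FDR) below 0.25 and a fold difference above 1.5. That FDR tolerates an expected 25% of false calls. Calls made up 4.04% of the genes tested, 2.38% higher and 1.65% lower. At FDR below 0.05 with the same fold, 90 genes were higher and 46 lower, and 1661 genes had an unadjusted p below 0.05. Insulin alone raised 691 genes (6.08%) and lowered 676 (5.95%) in Control cells, and raised 535 (4.71%) and lowered 430 (3.78%) in DKD cells. The responses were related. Of the genes that rose in Control cells, 250 also rose in DKD cells, which was 36.2% of the Control list and 46.7% of the DKD list. Of those that fell, 179 did so in both, 26.5% of the Control list and 41.6% of the DKD list. By sign alone, 88.0% of the genes that rose in Control and 84.0% of those that fell moved the same way in DKD cells. Across all genes tested the Spearman correlation of the 2 responses, which share no sample, was 0.532. The points are genes of the same libraries and are not independent.

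**Figure D1:**
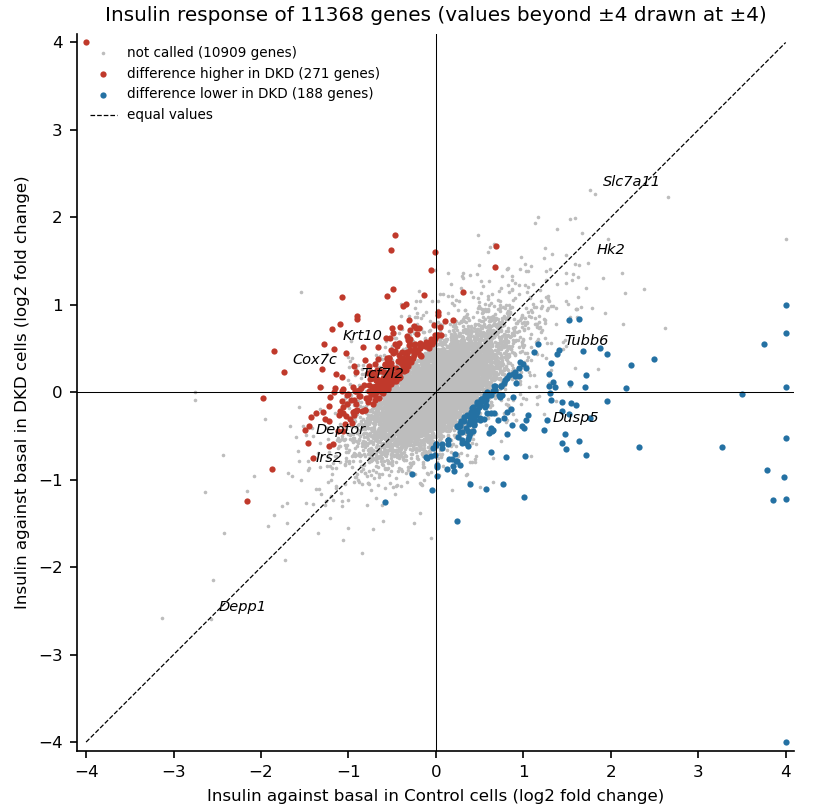
Change with insulin in Control cells (x axis) and in DKD cells (y axis), both as log2 fold changes, for 11368 genes. Red points are the 271 genes whose response was higher in DKD and blue points the 188 whose response was lower; they lie off the dashed line of equal values, mostly where one response is near 0, and Depp1, Hk2 and Slc7a11 lie close to the line.

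The called genes were divided by the insulin response that was itself called. In 194 of the 459 the effect of insulin was called in Control cells only, in 68 in DKD cells only, in 11 in both in one direction and in 15 in both in opposite directions. In the remaining 171 neither response was called alone. By sign the responses of Control and DKD cells were opposite in 341 of the 459 (74.3%), whether called or not. Median responses of the 271 higher genes were −0.56 in Control and 0.24 in DKD cells, and those of the 188 lower genes were 0.59 and −0.28. Medians over all genes tested were −0.01 and 0.00. These shares and medians describe the selection and are not tested.

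Genes of the insulin and forkhead pathways were described next. Deptor (chromosome 15, 55112317 to 55259271, plus strand) encodes an inhibitor bound to mTOR complexes. Its level was 96.1, 102, 100 and 114 CPM in Control basal samples and 34.3, 42.4 and 35.8 after insulin. In DKD cells it was 115, 109, 115 and 112 at basal and 72.2, 73.5 and 80.9 after insulin. Basal levels of Control and DKD cells overlapped, while every insulin-treated DKD sample was above every insulin-treated Control sample. With insulin Deptor changed by −1.47 in Control cells and by −0.58 in DKD cells, where the change stayed just under the fold minimum. The difference of 0.89 (SE 0.15, FDR 0.000915) corresponded to 1.85-fold, and ran from 0.83 to 0.97 when any of the 14 samples was left out.

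Irs2, the insulin receptor substrate of liver and a FoxO target, had a difference of the same sign. Its level was 170, 174, 176 and 213 CPM in Control basal samples, 55.9, 68 and 76.1 in Control insulin samples, 165, 161, 192 and 145 in DKD basal samples and 92, 97.9 and 78.5 in DKD insulin samples. All 3 DKD insulin samples exceeded the 3 Control insulin samples, and basal groups overlapped. The difference of 0.58 (SE 0.16, FDR 0.0523) was 1.49-fold and so just missed the fold minimum. Klhl24, a kelch-family gene also lowered by insulin, reached 1.51-fold and just passed it. Klhl24 stood at 110, 169, 172 and 170 CPM in Control basal samples, 67, 70.2 and 68.8 in Control insulin samples, 157, 158, 165 and 173 in DKD basal samples and 102, 114 and 110 in DKD insulin samples. Its difference was 0.59 (SE 0.16, FDR 0.0532), and being so near the fold minimum it lost the call in 8 of the 14 fits without 1 sample, with values down to 0.54. The Klhl24 call was also lost with limma-voom in place of edgeR, and once the trend on GC content and length was removed.

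Klhl24 was the single called member among the 20 tested of a list of 23 FoxO-type fasting genes, where the median difference was 0.13 against 0.01 over all genes. Without a fold minimum 5 of the 20 had an FDR below 0.25, all higher, beside 9.88% of all genes, 5.83% higher and 4.05% lower. Beyond Irs2 and Klhl24 they were Ccng2, a cyclin of growth arrest (0.56, SE 0.16, FDR 0.0532), Cdkn1b, the inhibitor p27 of cyclin-dependent kinases (0.50, SE 0.15, FDR 0.0907), and Fbxo32, the ubiquitin ligase atrogin-1 (0.45, SE 0.15, FDR 0.125). Ccng2 was highest in Control basal replicate 1, at 439 CPM against 287 to 295 in the other 3, and its difference was 0.39 without that sample. Several textbook members fell alike. Depp1 changed by −2.58 in Control and −2.60 in DKD cells, with a difference of −0.02 and a wide SE of 0.48. Txnip, the thioredoxin-binding protein, fell by 1.72 and 1.92. Insr, the receptor itself, had a difference of 0.22 (SE 0.15, FDR 0.541). Among 33 tested genes of the insulin and IGF pathway none was called, with a median of 0.02 and differences from −0.51 to 0.58. 3 of them were higher and 1 lower at FDR below 0.25 with any fold.

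**Figure D2:**
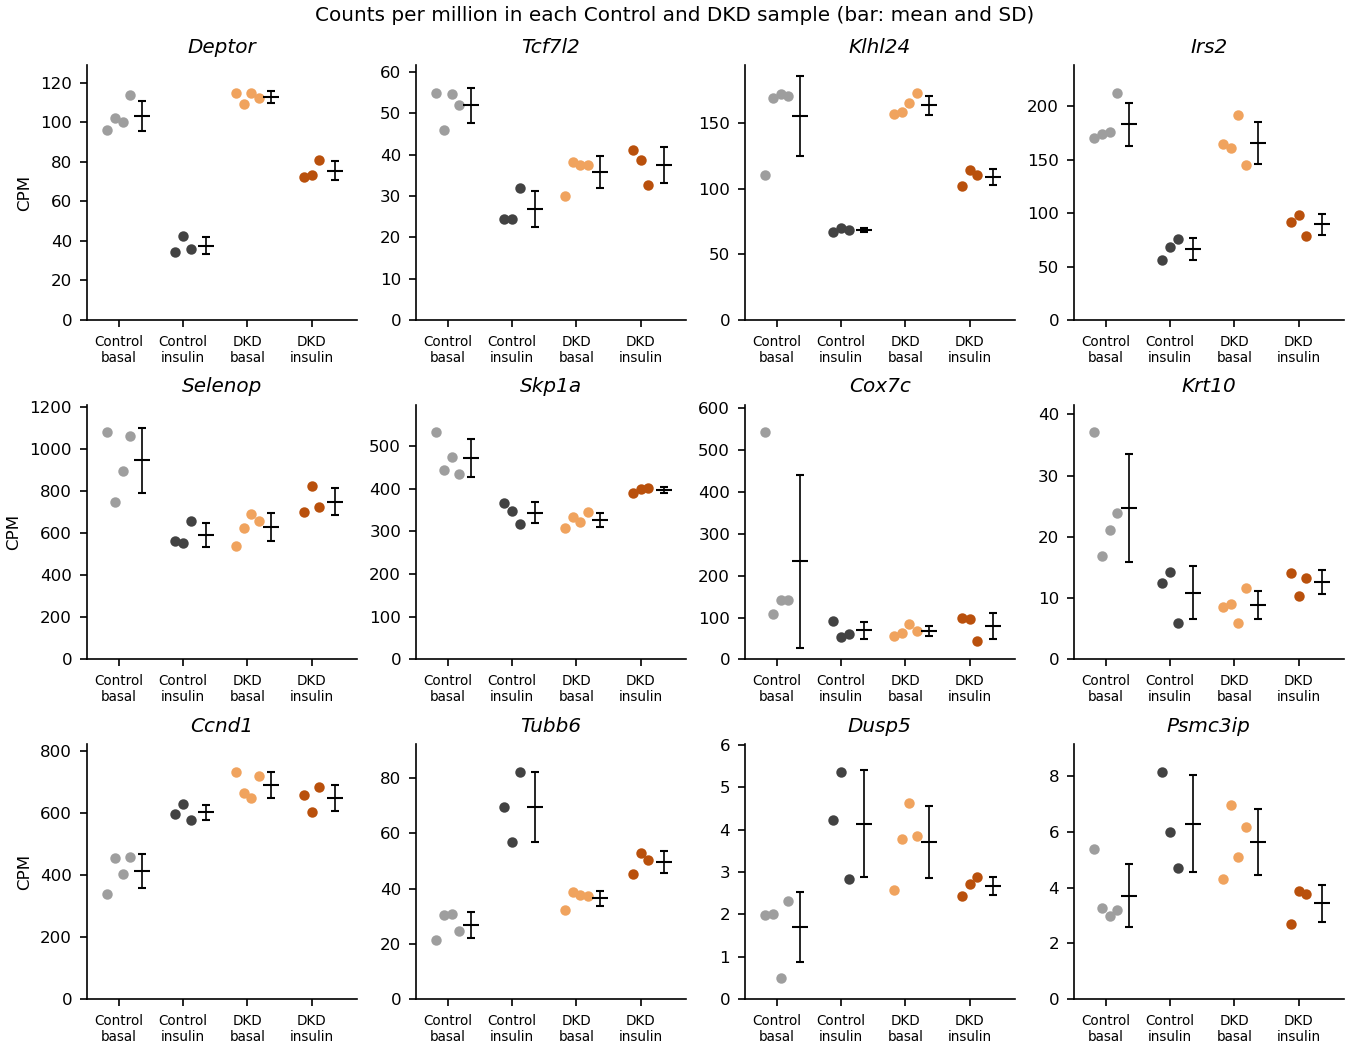
CPM (y axis, from 0) of 12 genes in each Control basal (n = 4), Control insulin (n = 3), DKD basal (n = 4) and DKD insulin (n = 3) sample, with the mean and SD as a bar. Deptor, Klhl24 and Irs2 separate after insulin, Ccnd1, Skp1a and Krt10 separate at basal, and Cox7c has 1 high Control basal sample at 543 CPM.

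Among the 271 genes with a higher response, insulin had a call in Control cells only in 113, in DKD cells only in 38 and in neither in 109. Of the 4 genes described next, Tcf7l2 had a call in Control cells, and Skp1a, Kdm6a and Echdc2 had none in either. Tcf7l2, a transcription factor of Wnt signalling, stood at 55, 46, 54.6 and 52 CPM in Control basal samples and 24.5, 24.3 and 31.8 after insulin. In DKD cells it was 30.1, 38.1, 37.5 and 37.5 at basal and 41, 38.7 and 32.7 after insulin. Control groups were fully apart and DKD groups overlapped, and the difference was 1.01 (SE 0.17, FDR 0.000962). Skp1a, the adaptor of SCF ubiquitin ligases, had 533, 445, 475 and 435 CPM in Control basal samples, 366, 349 and 317 in Control insulin samples, 308, 333, 323 and 346 in DKD basal samples and 389, 400 and 402 in DKD insulin samples. It went down in Control cells and up in DKD cells, without overlap in either. It differed by 0.73 (SE 0.11, FDR 0.000596), although neither change alone passed the fold minimum. Kdm6a, a demethylase of histone H3 lysine 27, had 127, 132, 159 and 158 CPM, then 95.5, 99.6 and 94 after insulin in Control cells, and 78.1, 81.2, 79.6 and 92.9, then 100, 110 and 103 in DKD cells. Its difference was 0.91 (SE 0.14, FDR 0.000596). Echdc2, a mitochondrial protein of the enoyl-CoA hydratase family, differed by 1.001 (SE 0.17, FDR 0.00103) with 42.5 to 45.7 CPM in Control basal, 28.2 to 32.6 in Control insulin, 23.6 to 29.6 in DKD basal and 32.7 to 39.5 in DKD insulin samples. These 4 calls held in every fit without 1 of the 14 samples.

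Among protein-coding genes that passed FDR 0.05 and averaged 3 or more in log2 CPM, the largest higher differences were those of Cox7c (1.97), Krt10 (1.66), Hint3 (1.38), Kyat3 (1.36), Pigp (1.18), Cmtm8 (1.16), Zbed4 (1.15), 2510002D24Rik (1.14), Yipf4 (1.11), Zfp422 (1.09), Fpgs (1.02) and Tcf7l2. Cox7c encodes a subunit of cytochrome c oxidase. It was at 543 CPM in Control basal replicate 1 and at 108, 143 and 142 in the other 3, against 54 to 92.6 after insulin, 55.7 to 84.2 in DKD basal and 44.7 to 98.8 in DKD insulin samples. Without that sample its difference was 1.14 and was still called. Fpgs, which adds glutamates to folate, had 110 CPM in the same sample and 45.9 to 54.5 in the others, and its difference was 0.67 without it. The same sample had 124 CPM of Cmtm8 against 50.7 to 64 in the other 3, 49.3 of 2510002D24Rik against 21.8 to 27.5, and 46.5 of Zfp422 against 22 to 34.6. Without it their differences were 0.79, 0.83 and 0.89, and all were still called. Krt10 is a keratin. Its level was 37.1, 16.8, 21.1 and 23.9 CPM in Control basal and 12.4, 14.2 and 5.97 in Control insulin samples, against 8.61, 9.02, 6.02 and 11.6 in DKD basal and 14.1, 10.4 and 13.3 in DKD insulin samples (SE 0.36, FDR 0.0116). Krt10 too was highest in Control basal replicate 1, and its difference was 1.42 without it. Hint3, of the histidine triad family, showed 39.5 to 56.5 CPM in Control basal samples and no more than 24.9 in any sample of the other 3 groups (SE 0.35, FDR 0.0373). In 2 of the 12 the DKD response alone was called. In DKD cells Kyat3, a kynurenine aminotransferase, lay between 3.2 and 5.46 CPM at basal and between 8.4 and 10.1 after insulin. Zbed4, a zinc finger gene, lay between 6.48 and 8.33 CPM at basal and between 10.8 and 13.5 after insulin.

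As forkhead proteins bind DNA at the core GTAAACA, promoter windows of the called genes were read from RefSeq (GRCm38.p6, 250 bases before to 50 after each start site). Windows were matched by gene symbol for 320 of the 459 called genes, 69.7%, and for 76.9% of all genes tested. Since under 80% had a window, a comparison of shares is void, and the values are given as they were found. The core, on either strand, was present in 8 of 203 higher genes (3.94%), in 3 of 117 lower genes (2.56%), in 3.18% of all tested genes with a window and in 3.65% of all 32851 windows. The shorter core TAAACA, which every GTAAACA contains, was in 15.8%, 8.55%, 10.2% and 13.4% respectively. A match is a stretch of letters and not a measured site.

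The 4 genes with the core and the smallest p among calls at FDR below 0.05 are shown, since in them the letters of the core and a difference in response meet. Each window is printed 5′ to 3′ on the strand of the gene, with the core in capitals. The last 50 bases of a window follow the RefSeq start site. A gene can have several start sites. The Selenop window is at chr15:3270727-3271026 on the plus strand with the core starting 24 bases before the start site, which lies 2430 bases inside the outermost start of the gene in GENCODE. The Yipf4 window is at chr17:74489243-74489542 on the plus strand with the core 144 bases before. The Rasa1 window is at chr13:85289437-85289736 on the minus strand with the core 220 bases before. The Ube2h window is at chr6:30243754-30244053 on the minus strand with the core 194 bases before. That site is an internal start, 60736 bases inside the outermost start of Ube2h in GENCODE, and the window at the outermost start is not the one shown.
Selenop: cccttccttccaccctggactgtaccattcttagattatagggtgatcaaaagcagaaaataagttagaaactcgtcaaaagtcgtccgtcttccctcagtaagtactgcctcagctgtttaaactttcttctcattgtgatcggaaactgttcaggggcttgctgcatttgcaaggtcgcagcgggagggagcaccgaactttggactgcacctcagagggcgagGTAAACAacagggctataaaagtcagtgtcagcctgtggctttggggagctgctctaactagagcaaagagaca
Yipf4: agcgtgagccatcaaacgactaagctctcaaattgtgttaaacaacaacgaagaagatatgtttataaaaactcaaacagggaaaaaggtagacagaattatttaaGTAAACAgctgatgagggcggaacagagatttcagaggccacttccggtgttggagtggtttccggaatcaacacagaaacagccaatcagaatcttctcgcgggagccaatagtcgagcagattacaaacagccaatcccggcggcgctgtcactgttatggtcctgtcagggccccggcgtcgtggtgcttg
Rasa1: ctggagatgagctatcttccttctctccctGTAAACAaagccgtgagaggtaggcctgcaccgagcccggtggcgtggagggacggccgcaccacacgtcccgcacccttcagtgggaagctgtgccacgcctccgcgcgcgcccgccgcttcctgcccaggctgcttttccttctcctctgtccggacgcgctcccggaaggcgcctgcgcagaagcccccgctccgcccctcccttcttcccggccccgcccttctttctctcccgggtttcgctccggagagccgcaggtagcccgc
Ube2h: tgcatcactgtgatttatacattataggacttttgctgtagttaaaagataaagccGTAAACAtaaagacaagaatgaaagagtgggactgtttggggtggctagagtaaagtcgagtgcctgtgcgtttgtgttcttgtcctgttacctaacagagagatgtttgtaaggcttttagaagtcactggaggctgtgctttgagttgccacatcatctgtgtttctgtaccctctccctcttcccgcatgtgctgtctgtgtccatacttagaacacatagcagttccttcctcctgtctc

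All 4 had a higher response in DKD cells, as did 8 of the 11 called genes with the core and 271 of all 459 calls. A link between the core and the direction was not tested. Selenop encodes the selenium carrier that hepatocytes secrete. Its level was 1080, 750, 894 and 1060 CPM in Control basal samples, 562, 552 and 657 after insulin, 538, 623, 691 and 659 in DKD basal samples and 700, 822 and 724 after insulin. Insulin lowered it in Control cells, and in DKD cells every insulin sample was above every basal sample, with a difference of 0.93 (SE 0.16, FDR 0.00151). Yipf4, a Golgi membrane protein, had 413, 275, 289 and 382 CPM in Control basal and 169, 148 and 169 in Control insulin samples, and 163, 175, 207 and 211, then 187, 192 and 203 in DKD cells. Control basal samples stood above the other 3 groups, which lay within 148 to 211 CPM, and the difference was 1.11 (SE 0.20, FDR 0.00191). Rasa1, a GTPase-activating protein for Ras, differed by 0.63 (SE 0.13, FDR 0.0113). Its range was 144 to 161 CPM in Control basal, 103 to 130 in Control insulin, 98.2 to 113 in DKD basal and 119 to 131 in DKD insulin samples. Ube2h, a ubiquitin-conjugating enzyme, also differed by 0.63 (SE 0.14, FDR 0.016), with 436 to 517, 284 to 344, 365 to 433 and 344 to 496 CPM in the same order. Both were near the fold minimum. The Rasa1 call was lost without Control insulin replicate 1 or 2 (0.57 and 0.58), and the Ube2h call without any 1 of 4 samples, down to 0.48 without DKD insulin replicate 2. The Rasa1 call was also lost once the trend on GC content and length was removed.

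Genes with a lower response were described in the same way. Ccnd1, the cyclin of G1 progression, stood at 340, 455, 403 and 459 CPM in Control basal samples and 599, 629 and 580 after insulin. In DKD cells it was 735, 665, 649 and 721 at basal and 660, 604 and 685 after insulin. Control insulin samples lay above all Control basal samples, whereas the DKD groups overlapped and DKD basal samples exceeded every Control sample. The difference was −0.63 (SE 0.12, FDR 0.00211), and −0.55, under the fold minimum, without Control basal replicate 1. Tubb6, a β-tubulin, had 21.3, 30.5, 30.8 and 24.5 CPM at basal and 69.6, 56.9 and 82.4 after insulin in Control cells, and 32.4, 38.7, 37.5 and 37.2, then 45.4, 53 and 50.4 in DKD cells. Insulin samples were higher in both Control and DKD cells without overlap, and by less in DKD, with a difference of −0.94 (SE 0.19, FDR 0.00655).

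H2afx, the histone variant phosphorylated at DNA breaks, had 15.5 to 24.1 CPM in Control basal, 27.5 to 43.5 in Control insulin, 34.3 to 46.3 in DKD basal and 25.6 to 39.5 in DKD insulin samples, and differed by −1.03 (SE 0.25, FDR 0.0314). Jdp2, a repressor that dimerizes with Jun, differed by −1.04 (SE 0.24, FDR 0.0195), with 8.68 to 16.2, 16.3 to 20.5, 15.9 to 20.8 and 12.8 to 14.6 CPM in the same order. Bicd2, a dynein adaptor, differed by −0.76 (SE 0.14, FDR 0.00329), and by −0.58 without Control insulin replicate 1, which ended the call. Prmt2, an arginine methyltransferase, differed by −0.74 (SE 0.14, FDR 0.00365). Its Control basal samples ran from 45.5 to 56.7 CPM and its DKD basal samples from 84.4 to 114. Ptbp1, a splicing repressor, differed by −0.52 (SE 0.10, FDR 0.00365), which is under the fold minimum. Under the same limits on gene type, FDR and level, the other large lower differences were those of Ftl1-ps1 (−1.52), Sergef (−1.04), Acbd4 (−0.90), Tor3a (−0.86), Polr3d (−0.82), Sarnp (−0.82), Ccdc136 (−0.80) and Ndufs8 (−0.76). Ftl1-ps1 carries the name of a ferritin light chain pseudogene, although the annotation types it as protein-coding, and reads may be split with its parent gene.

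Of 22 tested genes for ERK feedback and immediate early response, 3 had a lower response and none a higher one, beside 1.65% lower and 2.38% higher of all genes, and the median was −0.20. Dusp5 is a phosphatase of nuclear ERK. It was low throughout, at 1.98, 2, 0.496 and 2.32 CPM in Control basal, 4.22, 5.37 and 2.83 in Control insulin, 2.58, 3.78, 4.63 and 3.85 in DKD basal and 2.44, 2.71 and 2.87 in DKD insulin samples. It rose in Control cells without overlap, and its DKD groups overlapped (−1.67, SE 0.49, FDR 0.0705). Etv4, an ETS factor downstream of ERK, had 4.5 to 5.54, 11.3 to 17.3, 4.07 to 7.4 and 7.52 to 9.29 CPM in the same order (−0.92, SE 0.33, FDR 0.149), and lost the call in 3 of the 14 fits, with values to −0.71. Spred2, an inhibitor of Ras signalling, differed by −0.64 (SE 0.19, FDR 0.0812) and lost the call in 2 fits, at −0.57 without Control basal replicate 1 and −0.51 without DKD insulin replicate 1. Egr1 fell in Control cells by 1.13 and was at −0.55 in DKD cells, with a difference of 0.57 (SE 0.30, FDR 0.377). Genes of DNA replication and S phase had a median difference of −0.20. Their median response was 0.61 in Control and 0.40 in DKD cells, on either side of the fold minimum of 0.585 in log2. Of 32 tested, 17 rose with insulin in Control cells and 7 in DKD cells, and 1 differed by the call, Ccne1, the cyclin of S phase entry. Ccne1 went from a range of 6.7 to 7.68 CPM at basal to 20.2 to 27.4 after insulin in Control cells, and from a range of 7.27 to 10.3 to a range of 13.2 to 22.2 in DKD cells (−0.80, SE 0.30, FDR 0.176). Its call was lost in 4 of the 14 fits, with values to −0.66. With any fold, 5 of the 32 were lower at FDR below 0.25 and none higher, beside 4.05% and 5.83% of all genes. The other 4 were Mcm3 (−0.45, FDR 0.0542), Mcm2 (−0.33, FDR 0.146), Slbp (−0.38, FDR 0.197) and Mcm7 (−0.35, FDR 0.201). Genes of mitosis had a median of −0.03 and no call among 26.

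Anabolic programs responded in both Control and DKD cells. Of 25 genes for cholesterol synthesis and uptake, 10 rose with insulin in Control and 11 in DKD cells, with medians of 0.52 and 0.54, and none differed by the call. Of 22 genes for glucose uptake and glycolysis, 8 rose in Control and 7 in DKD cells, medians were 0.40 and 0.46, and none was called. Hk2, a hexokinase, had 12.7 to 17.8 CPM at basal and 48.3 to 53.7 after insulin in Control cells, and 12.1 to 14.9, then 37.3 to 38 in DKD cells (−0.26, SE 0.18, FDR 0.54).

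Fatty acid synthesis genes had medians of 0.43 and 0.54, with 4 of 16 up in Control and 8 in DKD cells. The stearoyl-CoA desaturases, which make monounsaturated fatty acids, had the smallest FDR of that list. Scd1 stood at 1170, 986, 1140 and 947 CPM at basal and 1530, 1490 and 1500 after insulin in Control cells, and 545, 646, 625 and 600, then 1120, 1260 and 1140 in DKD cells. Scd1 was lower in every DKD basal sample than in any Control sample, and the response was larger by 0.45 (SE 0.12, FDR 0.0406), or 1.37-fold, under the minimum. Scd2 differed by 0.47 (SE 0.10, FDR 0.014), with 4210 to 5020, 5100 to 5540, 2860 to 3260 and 4580 to 5020 CPM in Control basal, Control insulin, DKD basal and DKD insulin samples. Fasn, fatty acid synthase, changed by 0.64 and 0.60, with a difference of −0.04 (SE 0.14) that turned to 0.12 when the GC and length trend was removed.

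Targets of ATF4 and amino acid synthesis gave 20 of 26 genes up in Control and 15 in DKD cells, with medians of 0.78 and 0.68 and a median difference of −0.13. Asns, asparagine synthetase, changed by 1.02 and 1.23 (difference 0.21, SE 0.13). Chac1, which degrades glutathione, was the 1 member with a call (0.98, SE 0.41, FDR 0.232), and it lost that call in 9 of the 14 fits. Among 20 genes for ER chaperones and the unfolded protein response, 8 rose in Control and 10 in DKD cells. Sdf2l1, a co-factor of ER chaperones, rose in both. Its ranges were 11.3 to 21.2 CPM at basal and 22.6 to 30.6 after insulin in Control, and 12.5 to 15.3, then 32 to 41.1 in DKD cells. It differed by 0.76 (SE 0.26, FDR 0.142), a call lost in 4 fits. Hspa5, the chaperone BiP, differed by 0.31 (SE 0.10, FDR 0.0968). Of 15 genes that the study names for insulin in these cells, 4 were tested, and since that list was chosen on these samples it is not independent evidence. Dusp5 and 1 other were lower and none was higher. Slc7a11, the cystine transporter, rose by 1.82 and 2.27 (difference 0.45, SE 0.28, FDR 0.478).

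**Figure D3:**
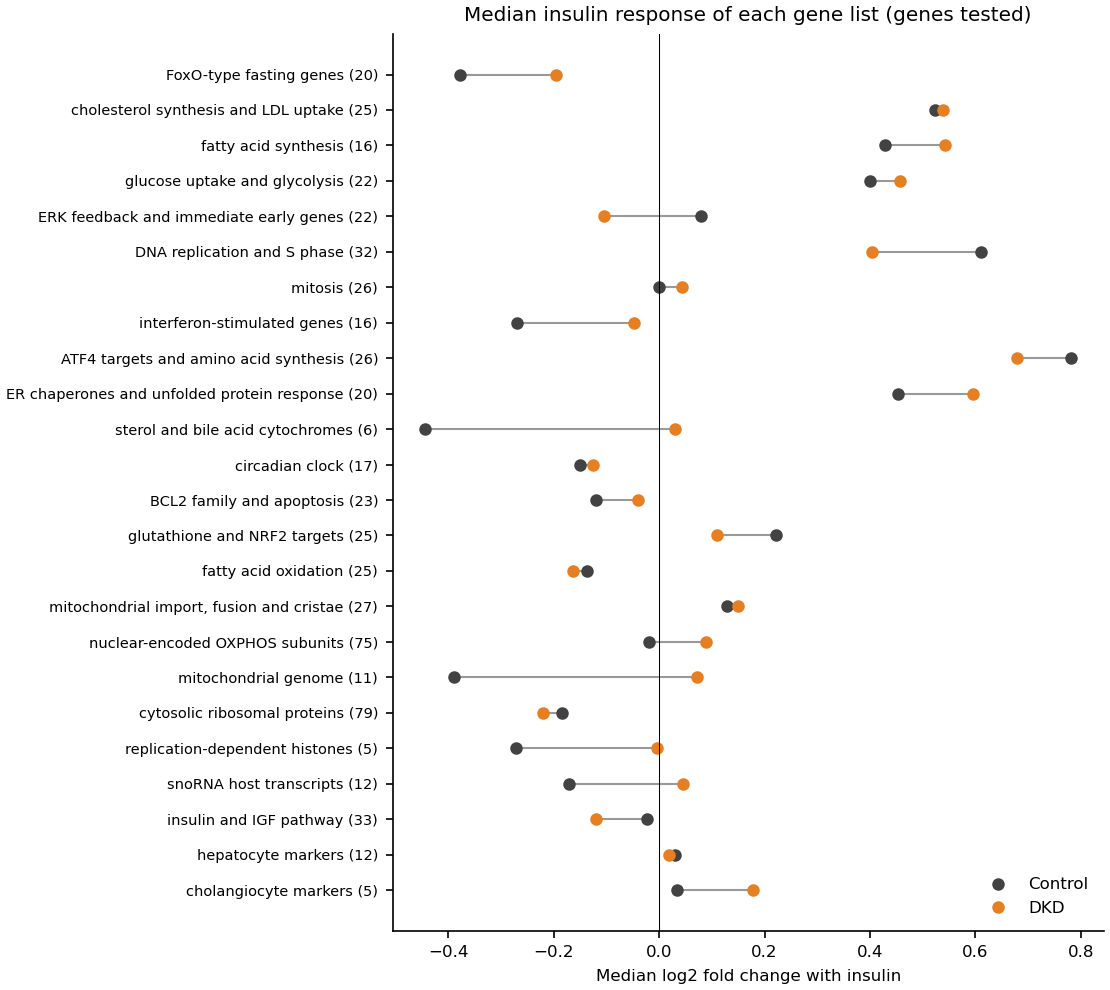
Median log2 fold change with insulin of each gene list with at least 5 genes tested, in Control (dark) and DKD cells (orange), with the number of genes tested in brackets. The medians of Control and DKD cells are near each other for cholesterol synthesis (0.52 and 0.54) and glycolysis (0.40 and 0.46), and apart for the mitochondrial genome (−0.39 and 0.07).

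Transcripts of the mitochondrial genome formed the list with the largest share of calls. Mitochondrial DNA encodes 13 subunits of the respiratory chain and the 2 mitochondrial ribosomal RNAs. Of 11 mRNAs tested, 6 had a higher response in DKD cells and none a lower one, beside 2.38% and 1.65% of all genes, with a median of 0.64 against 0.01 over all genes. They were mt-Nd6 (0.98, SE 0.17, FDR 0.00153), mt-Nd4 (0.90, SE 0.25, FDR 0.0523), mt-Nd5 (0.76, SE 0.19, FDR 0.0317), mt-Nd2 (0.76), mt-Cytb (0.70) and mt-Nd1 (0.64). These transcripts come from the same genome and the same libraries and are not independent of each other. The mt-Nd6 transcript, the only mRNA of the light strand, had 389, 291, 293 and 344 CPM in Control basal samples, 149, 170 and 168 in Control insulin, 120, 171, 143 and 156 in DKD basal and 136, 154 and 143 in DKD insulin samples. Control basal samples were apart from all other samples of the contrast. Outside it, basal samples of the FoxK1 single knockdown had 256 to 323 CPM and overlapped them. Those of the FoxK2 single knockdown had 187 to 270. The mt-Nd5 transcript had 1570, 2110, 1890 and 2750 CPM in Control basal samples, 1230 to 1380 in Control insulin, 978 to 1250 in DKD basal and 1040 to 1460 in DKD insulin samples. The ribosomal RNAs mt-Rnr1 (1.24, SE 0.30, FDR 0.0235) and mt-Rnr2 (0.79, SE 0.31, FDR 0.198) were also called. Both rose with insulin in DKD cells, by 0.74 and 0.77. Libraries were made from poly(A) RNA, and the part of that selection in these values was not tested. Not all members moved so. mt-Co3 (−1.13, SE 0.65), mt-Atp6 (−0.87, SE 0.57) and mt-Co2 (−0.76, SE 0.63) had wide errors and no call.

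The share of mitochondrial mRNA in all counts was 1.16 to 1.91% in Control basal, 0.929 to 1.19% in Control insulin, 0.881 to 1.13% in DKD basal and 0.98 to 1.40% in DKD insulin samples. Of the 6 mRNA calls, 1 was left, mt-Nd6, when the trend of the counts with GC content and length was taken out per sample, and 2 at FDR below 0.05. Leaving out 1 sample ended the call of mt-Cytb (0.51 without DKD insulin replicate 2), mt-Nd4 (0.66 without the same sample), mt-Nd2 (0.56 without Control basal replicate 4), mt-Nd1 in 4 fits (to 0.42) and mt-Rnr2 in 7 fits (to 0.43).

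**Figure D4:**
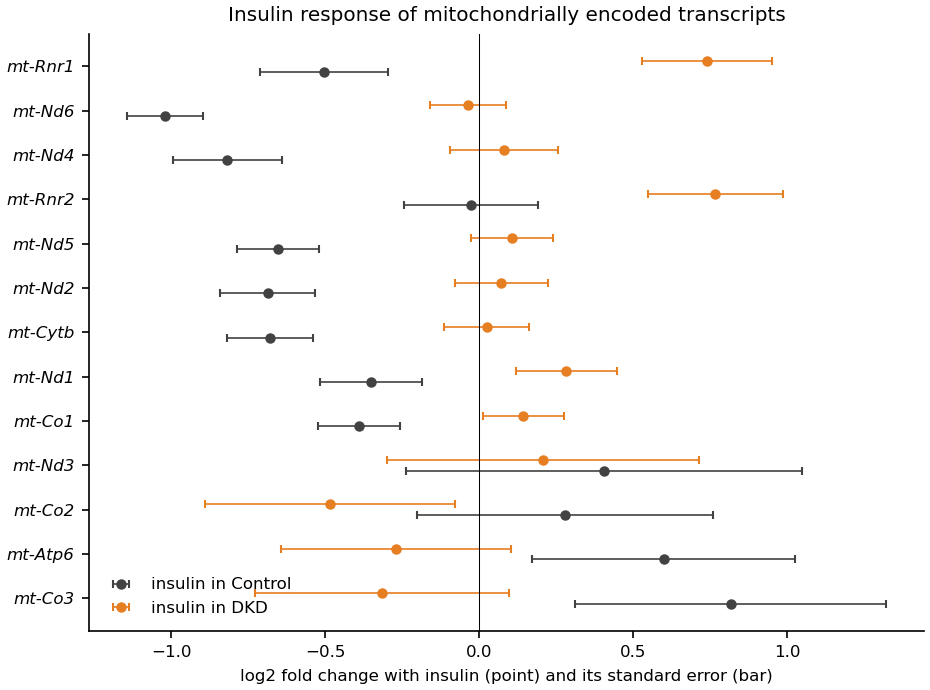
Log2 fold change with insulin (points) and its standard error (bars) for transcripts encoded by mitochondrial DNA, in Control (dark) and DKD cells (orange), ordered by the difference. In Control cells mt-Nd6 lies at −1.02 and mt-Nd4 at −0.82, in DKD cells both lie near 0, and mt-Co2, mt-Co3, mt-Atp6 and mt-Nd3 have wide bars.

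Among 75 tested nuclear genes for the respiratory chain, 3 were higher and 1 lower, a share near the 4.04% of all genes, and the median was 0.05. Beside Cox7c, the higher ones were Cox7b, another oxidase subunit (0.78, SE 0.21, FDR 0.0523), and Uqcrfs1, the Rieske protein of complex III (0.66, SE 0.16, FDR 0.0234), whose value fell under the fold minimum at 0.56 without Control basal replicate 1. The lower one was Ndufs8, an iron–sulfur subunit of complex I, with 34, 59, 70.2 and 54.8 CPM in Control basal, 131, 90.4 and 115 in Control insulin, 83.3, 85.2, 102 and 97.1 in DKD basal and 118, 115 and 99.5 in DKD insulin samples (−0.76, SE 0.21, FDR 0.0482). Tomm22, a receptor of the outer-membrane import pore, was the 1 called gene of 27 for import, fusion and cristae (0.73, SE 0.19, FDR 0.0384). Acot2, a mitochondrial acyl-CoA thioesterase, was the 1 called gene of 25 for fatty acid oxidation. Its level was 18.4 to 26.1, 10.8 to 13.9, 8.33 to 15.4 and 13.3 to 17.8 CPM in Control basal, Control insulin, DKD basal and DKD insulin samples (0.997, SE 0.27, FDR 0.0479). Of 79 cytosolic ribosomal protein genes, 4 were higher and 1 lower, beside 2.38% and 1.65% of all genes, with a median of −0.07. Rpl37a was at 146 to 176 CPM in Control basal samples and at 80.1 to 83.8 in DKD basal samples, with 81.7 to 123 and 84.7 to 100 after insulin (0.89, SE 0.16, FDR 0.00153). Ribosomal protein genes have many processed copies, and how reads were split between them was not tested.

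By gene type, 7 of 251 pseudogenes tested were called higher and 36 lower (17.1%), against 241 and 149 of 10688 protein-coding genes (3.65%). The most extreme of the fitted differences belonged to the transcripts that were near 0 in Control basal samples, Rps2-ps10, Gm42939 and Gm12922 among them. Fitted fold changes of such transcripts depend on the prior count and are not given. With protein-coding genes alone in the table, 264 genes were higher and 143 lower.

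The 15 genes with opposite calls included 11 that rose in Control and fell in DKD cells. Of these, 7 were pseudogenes, and 1, Gm10800, is a predicted gene with 0 counts in at least 1 sample of each of the 4 groups. The named protein-coding genes among them were Crocc2, Psmc3ip and Nthl1, all at low counts. Psmc3ip, a protein of meiotic recombination, had 5.39, 3.25, 2.98 and 3.21 CPM at basal and 8.17, 6.01 and 4.72 after insulin in Control cells, and 4.31, 6.98, 5.09 and 6.16, then 2.68, 3.87 and 3.76 in DKD cells. Control groups overlapped at 1 sample, DKD groups did not overlap, and the difference was −1.54 (SE 0.41, FDR 0.0453). Nthl1, a glycosylase of base excision repair, differed by −1.32 (SE 0.39, FDR 0.0771), with 1.98 to 5.46, 4.74 to 6.86, 6.89 to 9.89 and 3.48 to 5.75 CPM in Control basal, Control insulin, DKD basal and DKD insulin samples. The 4 that fell in Control and rose in DKD cells were Gm12940, Gm17066, Lrp2bp and Acot6. Acot6, an acyl-CoA thioesterase next to Acot2 in its family, had 2 to 3.97, 1.26 to 1.9, 1.16 to 2.82 and 2.32 to 3.9 CPM in the same order (1.88, SE 0.53, FDR 0.057).

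The difference in response equals the DKD–Control difference after insulin minus that at basal, and both were examined. At basal 507 genes were higher and 357 lower in DKD cells (7.60%), and after insulin 170 were higher and 40 lower (1.85%). Of the 459 called genes, 252 (54.9%) differed at basal only, 31 after insulin only, 5 at both and 171 at neither. In 369 (80.4%) the absolute DKD–Control difference was larger at basal, against 61.1% of all genes tested. Median DKD–Control differences of the 271 higher genes were −0.60 at basal and 0.20 after insulin, and of the 188 lower genes 0.67 and −0.17. Deptor and Klhl24 belonged to the 31 genes, with basal differences of 0.13 and 0.07 and differences of 1.02 and 0.66 after insulin.

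**Figure D5:**
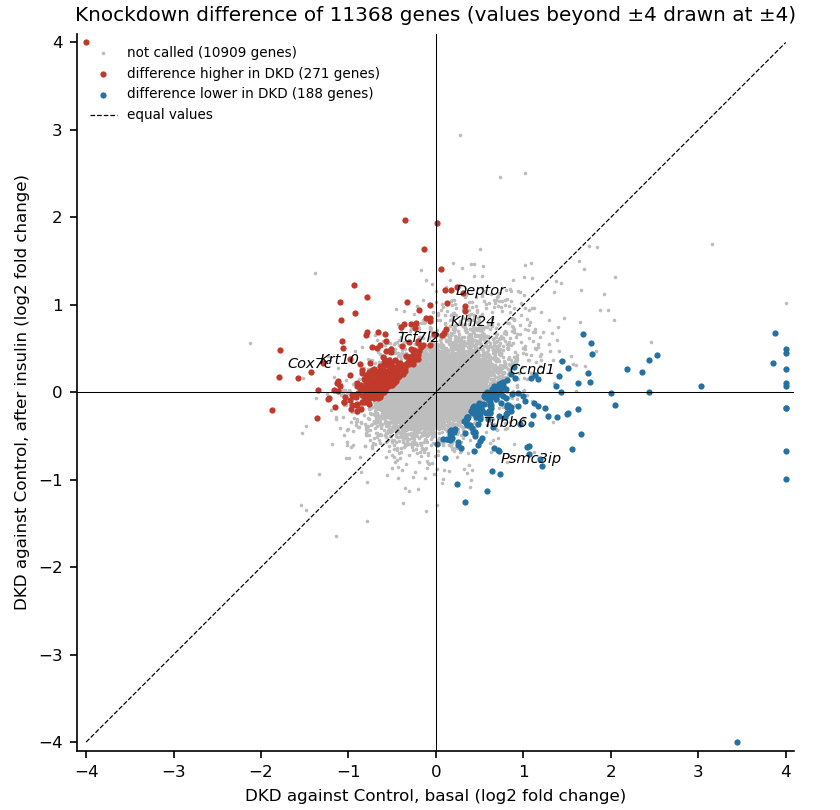
DKD against Control at basal (x axis) and after insulin (y axis), as log2 fold changes, for 11368 genes. The 271 red and 188 blue genes, called for the difference in response, spread mainly along the horizontal axis, and Deptor and Klhl24 lie along the vertical one.

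Responses in the single knockdowns are set beside these, and their differences from Control share the Control samples. FoxK1KD minus Control gave 133 higher and 43 lower genes, none with FDR below 0.05. FoxK2KD minus Control gave none, and the smallest edgeR FDR was 0.883. In that contrast 625 of 11368 genes had an unadjusted edgeR p below 0.05. A 0.05 share of genes passes that cut without any difference. Median responses of the 271 higher genes were −0.26 in FoxK1KD and −0.29 in FoxK2KD cells, and of the 188 lower genes 0.41 and 0.34. Deptor changed by −1.08 with insulin in FoxK1KD and by −1.23 in FoxK2KD cells. Tcf7l2 changed by −0.21 and −0.56, and its difference from Control was also called in FoxK1KD cells (0.74, SE 0.16, edgeR FDR 0.0856), where that FDR was the smallest of the contrast. The difference in FoxK2KD cells was 0.39 (SE 0.16, edgeR FDR 0.883). Ccnd1 changed by 0.16 and 0.12, and Tubb6 by 1.34 and 1.07. Whether the double knockdown differs from each single knockdown in these genes was not tested.

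Base composition moved with the difference. Its Spearman correlation with gene GC content was −0.307 over 11346 genes, against 0.466 for the DKD–Control difference at basal and 0.203 after insulin. Mean GC content of the reads' genes was 48.36 to 49.07% in Control basal samples, with Control basal replicate 1 at the upper end, 48.57 to 48.89% in Control insulin, 48.91 to 49.28% in DKD basal and 48.68 to 49.02% in DKD insulin samples. In the single knockdowns it was 47.94 to 48.46% in FoxK1KD basal and 48.25 to 48.64% in FoxK2KD basal samples. After insulin it was 48.66 to 49.1% in FoxK1KD and 48.64 to 49% in FoxK2KD samples. With that trend and length removed, 219 genes were higher and 161 lower, and 316 of the 459 (68.8%) were called in the same direction. Without Control basal replicate 1, 285 were higher and 264 lower, and 367 of the 459 kept their call. In all 14 fits without 1 sample 157 genes were called, 94 higher and 63 lower, among them Deptor, Tcf7l2, Skp1a, Kdm6a, Selenop, Yipf4, Krt10, Tubb6 and H2afx.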

How the data were processed

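The submitters' notes name CASAVA 1.8, STAR 2.4.2a, featureCounts and GRCm38.p4. The values are raw gene counts per sample, deposited by the authors without normalization, from poly(A)-selected RNA. All 30 samples (8 groups) were fitted together with edgeR 4.0.16 in R 4.3.3 (filterByExpr, TMM, quasi-likelihood test, Benjamini-Hochberg FDR), as contrasts of group means; standard errors are the log2 difference divided by the root of F. The study's own analysis used limma, which was run here as an alternative (limma-voom 3.58.1), as was DESeq2 1.42.0. Genes were named from GENCODE M21 by Ensembl ID (48435 of 49089 matched). Strand use in counting is not given in the sources used here. The code was tested on simulated data.

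Genes were named by rule: the targets; 15 genes the study names; the 12 protein-coding genes per direction with the largest difference (FDR below 0.05, mean log2 CPM of at least 3); 3 per direction of any type (at least 1); 5 per direction by p; up to 4 called members of each of 28 lists. Genes with opposite calls, those with promoter windows shown and uncalled list members were chosen after their values were seen. Contrast and lists were chosen with earlier results of these data known. Replicate numbers did not pair samples, as 19 same-number pairs had a mean correlation of deviations of 0.00271. None of 18 pairs of samples of a group agreed within sampling noise (lowest chi-square per degree of freedom 1.92). Some single-gene results are not reported here.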

Additional observations from a re-analysis of the deposited data

Results flagged for a closer look

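The response to insulin differed between DKD and Control cells by the interaction test for 271 genes higher and 188 lower, and between FoxK1KD and Control cells for 133 higher and 43 lower, none of the latter with an edgeR FDR below 0.05, where 1519 genes had an unadjusted p below 0.05. In 15 genes both responses were called with opposite signs, 11 of them at Control up and DKD down.

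Among 50 named genes and both basal groups, 10 of at most 100 sets of 4 samples had 1 sample far from the rest (its gap above 0.829 of the range). Sets with all values equal, as in Rps2-ps10 and Gm13668 at 0 in Control basal, could not be flagged. Apart from Foxk1 and Foxk2 these genes were named for their calls, so a chance rate for unselected genes does not apply. Of the 10, 6 were the highest value in Control basal replicate 1, namely 543 CPM for Cox7c, 110 for Fpgs, 30.3 for Gm12940, 5.39 for Psmc3ip, 2.84 for Gm43712 and 0.284 for Gm42939. In Control basal replicate 3, Gm12922 was at 0.496 CPM and at 0 in the other 3. In DKD basal samples, Gm13668 was highest in replicate 4 at 5.91 CPM, Crocc2 lowest in replicate 3 at 6.02 and Tcf7l2 lowest in replicate 1 at 30.1.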

How the results depend on the processing

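No call of the difference in response turned to the opposite direction under any of 11 alternative settings. DESeq2 gave 232 higher and 162 lower genes, limma-voom 244 and 193, DESeq2 size factors 263 and 193, no filter 320 and 164, and a minimum of 10 counts 235 and 147. The replicate block gave 264 and 184, ended the call of Chac1 and of no other named gene; replicate numbers did not pair the samples. With only the 14 Control and DKD samples 158 and 97 were called, and 91 and 22 for DKD against Control after insulin. At FDR below 0.05 the counts were 90 and 46, with 334 higher for insulin in DKD cells and 67 and 9 for DKD against Control after insulin. Without a fold minimum they were 663 and 460 for the difference, 2517 and 2786 for insulin in Control, 2125 and 2119 in DKD, 2407 and 2545 for DKD against Control at basal and 419 and 338 after insulin. With 10 counts in every sample they were 420 and 432, 302 and 250, and 248 and 224 for insulin in Control, insulin in DKD and the basal difference. Removing the GC and length trend gave 64 lower genes after insulin and turned the uncalled Fasn to 0.12 and Depp1 to 0.061. The cause of these changes was not tested.

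Leaving out 1 sample moved the difference between 156 and 348 higher and between 120 and 264 lower genes, with the fewest higher without DKD insulin replicate 2 and the fewest lower without DKD basal replicate 1 (120) or DKD insulin replicate 2 (125). The genes lower in DKD after insulin ran between 28 and 74, with 74 without Control insulin replicate 1 and 65 without Control basal replicate 1. Fasn ran from −0.15 to 0.022 and Depp1 from −0.33 to 0.30. Depth limits low transcripts, and the median standard error of the difference over all genes tested was 0.20 on the log2 scale.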

Other observations

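Interferon-stimulated genes, which cells raise in response to foreign nucleic acid, gave no call among 16 tested, and 15 of the 16 differences were above 0, as were 51.3% of those of all genes, with a median of 0.27 and a median SE of 0.25. Their median response was −0.27 in Control and −0.05 in DKD cells. The 6 tested cytochromes and enzymes of sterol side chain and bile acid synthesis also had differences above 0 in each case, from 0.13 to 0.81, and no call. Cyp39a1, an oxysterol hydroxylase, changed by −0.52 in Control and −0.10 in DKD cells (difference 0.42, SE 0.16, edgeR FDR 0.177). Of 12 tested snoRNA host transcripts 2 were higher, Snhg14 (0.91, SE 0.32, edgeR FDR 0.146) and Snhg5 (0.60, SE 0.18, edgeR FDR 0.0828), calls that were lost in 3 and 6 of the 14 fits without 1 sample. Lists for the circadian clock (17 tested), BCL2 family and apoptosis (23), glutathione and NRF2 targets (25) and mitosis (26) held no call, with medians of 0.12, 0.01, −0.05 and −0.03. Among hepatocyte markers Krt8, a keratin of simple epithelia, was lower (−0.60, SE 0.16, edgeR FDR 0.0426) and lost the call in 6 of the 14 fits without 1 sample.

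Of 5 replication-dependent histone genes tested, 1 was higher, Hist1h4i (2.33, SE 0.69, edgeR FDR 0.0741). Neither of 2 tested macrophage and leukocyte markers and none of 5 cholangiocyte markers was called, with medians of 0.02 and 0.15.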
